A study of Mus musculus with 53 samples.

Results

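Late GATA6 regions without SOX2 are stretches of the mouse genome that GATA6 occupied in naive extra-embryonic endoderm cells but not in embryonic stem cells that co-express SOX2 and GATA6, and at which no SOX2 peak was seen in any pluripotent culture. They were chosen on GATA6 and SOX2 peaks alone. The GATA6 peaks of 3 DP and 2 nEnd libraries were merged where they shared at least 1 bp, which gave 39910 regions. Of these, 19748 held peaks of both nEnd libraries, 15716 of those had no peak of any DP library, and 13552 of those overlapped no peak of 10 SOX2 libraries. These 13552 regions are 33.96% of all merged GATA6 regions and 68.6% of those with peaks of both nEnd libraries. Their presence of GATA6 in nEnd and absence of GATA6 in DP and of SOX2 in these 10 libraries are therefore descriptions and not findings. SOX2 was not mapped in nEnd.

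Binding and marks were mapped by CUT&RUN, which uses an antibody to tether a nuclease to its target in intact nuclei and sequences the short fragments that are cut free. All cells belonged to SGGC, a mouse E14JU (129/Ola) embryonic stem cell line in which endogenous SOX2 is fused to GFP and endogenous GATA6 to mCherry, studied as 2 clones, B9 and B12, so all groups share both fusion alleles. SOX2+ cells (GFP positive, mCherry negative) and DP cells (positive for both) were sorted from clone B12 grown in KnockOut Serum Replacement (KOSR) medium, 2iLIF cells were grown with a MEK inhibitor, CHIR99021 and LIF, NACL cells with Activin A, CHIR99021 and LIF, and nEnd cells are an expanding naive extra-embryonic endoderm culture of the same clones in RACL medium. GATA6 was mapped in DP (3 libraries) and nEnd (2), SOX2 in SOX2+ (3), DP (3), 2iLIF (2) and NACL (2), and the marks H3K27ac and H3K4me1 in 2 libraries each of 2iLIF, NACL, SOX2+ and nEnd and in 1 library each of DP. The nEnd and SOX2+ libraries differ in medium and sorting. Clone B9 gave both H3K4me1 libraries of nEnd while B12 gave those of SOX2+, so cell state, medium and, for H3K4me1, clone cannot be told apart. The clones give at most 2 independent lines, and the p-values below measure the spread between libraries.

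GATA6 is a zinc-finger transcription factor that recognises the sequence GATA and can bind nucleosomal DNA. In the blastocyst it directs inner cell mass cells to the primitive endoderm (PrE), the lineage that later secretes the basement membrane of Reichert's membrane and forms the absorptive visceral endoderm, while SOX2 maintains the epiblast. H3K4me1 marks enhancers whether or not they are in use, and H3K27ac marks enhancers and promoters in use.

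The sequences below are shown because they carry the GATA strings on which the motif results turn and lie near genes that the results name. Each is the 200 bp around the maximum of the stronger nEnd GATA6 peak, read 5′ to 3′ on the plus strand of the C57BL/6J reference (GRCm38, the coordinates of mm10), whereas the cells are 129/Ola. Capitals mark GATA strings, that is GATA preceded by A or T and followed by A or G, or the reverse complement. The member near Chst15 was the second strongest by GATA6 signal rank, with both nEnd libraries above the 99th percentile of their own peaks. Those near Creb3l2 and Gata4 represent endoderm transcription factors, Lama1 and Col4a2 the basement membrane, Lrp2 endocytosis, and Plac1 a member with H3K4me1 and no H3K27ac in nEnd.
Chst15 (chr7:132250731-132250930): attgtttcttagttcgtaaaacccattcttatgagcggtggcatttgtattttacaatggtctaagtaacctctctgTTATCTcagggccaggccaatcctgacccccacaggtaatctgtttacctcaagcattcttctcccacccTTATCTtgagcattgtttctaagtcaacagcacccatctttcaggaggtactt
Creb3l2 (chr6:37397374-37397573): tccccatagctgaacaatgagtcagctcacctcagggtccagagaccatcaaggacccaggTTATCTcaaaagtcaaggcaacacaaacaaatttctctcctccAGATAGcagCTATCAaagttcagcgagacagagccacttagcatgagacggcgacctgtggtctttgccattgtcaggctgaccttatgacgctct
Gata4 (chr14:63265331-63265530): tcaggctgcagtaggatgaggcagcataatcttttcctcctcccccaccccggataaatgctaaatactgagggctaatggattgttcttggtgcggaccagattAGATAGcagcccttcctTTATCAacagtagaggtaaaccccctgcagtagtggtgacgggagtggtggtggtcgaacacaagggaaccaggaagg
Lama1 (chr17:67685480-67685679): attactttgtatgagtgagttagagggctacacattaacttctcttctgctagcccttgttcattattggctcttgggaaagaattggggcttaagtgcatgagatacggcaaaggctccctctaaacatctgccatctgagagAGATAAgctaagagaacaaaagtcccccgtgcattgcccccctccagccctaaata
Col4a2 (chr8:11367498-11367697): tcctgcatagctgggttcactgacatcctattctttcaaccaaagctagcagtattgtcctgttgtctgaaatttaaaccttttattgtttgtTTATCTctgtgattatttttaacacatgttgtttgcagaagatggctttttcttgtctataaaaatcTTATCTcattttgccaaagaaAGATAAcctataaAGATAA
Lrp2 (chr2:69607784-69607983): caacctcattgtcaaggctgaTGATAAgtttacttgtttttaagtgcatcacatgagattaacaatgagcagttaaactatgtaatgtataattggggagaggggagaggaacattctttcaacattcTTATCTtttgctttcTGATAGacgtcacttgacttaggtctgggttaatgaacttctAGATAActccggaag
Plac1 (chrX:53123708-53123907): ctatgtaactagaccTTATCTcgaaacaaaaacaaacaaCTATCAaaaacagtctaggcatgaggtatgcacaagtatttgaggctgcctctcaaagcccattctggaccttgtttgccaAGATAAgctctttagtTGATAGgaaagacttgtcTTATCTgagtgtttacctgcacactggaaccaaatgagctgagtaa

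The 7 windows held between 1 GATA string (Lama1) and 5 (Plac1). The Col4a2 and Lrp2 windows carried 4 each.

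The chosen regions were narrow and well placed by both libraries. Their median width was 490 bp (quartiles 396 and 618 bp), and the maxima of the B9 and B12 peaks lay a median of 16 bp apart, within 100 bp in 95.0% of regions. They spread over chromosomes 1 to 19 and X, from 2.23 per Mb on chromosome X to 8.16 per Mb on chromosome 19, with 0 on Y. As a share of the regions with peaks of both nEnd libraries they ranged from 64.4% on chromosome 11 to 75.8% on chromosome 14. The share thus varied less between chromosomes than the density did.

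The strength of the nEnd peak was ranked within each library, as the percentage of that library's GATA6 peaks with a lower total signal. The median percentile was 53.7 in B9 and 61.6 in B12. At 2164 late regions with SOX2, which meet the same GATA6 rule but overlap a SOX2 peak, the medians were 49.7 and 63.3. At 4032 early kept regions, where both nEnd libraries and at least 1 DP library had a GATA6 peak, they were 73.8 and 86.4. The early kept class was not filtered on SOX2, and 1664 of its regions (41.3%) overlapped a SOX2 peak of at least 1 library. The regions without SOX2 were thus of middle rank in nEnd, and the early kept ones ranked higher in both libraries. Cut into 4 equal groups by mean rank, regions without SOX2 made up 79.7% of the weakest and 52.5% of the strongest group of all regions with peaks of both nEnd libraries.

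The number of regions depends on how many peaks each library gave. The DP libraries held 1391 to 8316 GATA6 peaks and the nEnd libraries 24223 and 32510. Held to 8316 peaks each, the nEnd libraries gave 5767 regions in common, of which 3091 (53.6%) were late without SOX2 and 37.8% early kept. With the stronger 50% of every GATA6 and SOX2 library the number was 6984, and with nEnd B12 alone (without nEnd B9) it was 23401. Near the threshold, 1212 of the 13552 regions (8.94%) had a SOX2 or DP GATA6 peak within 1 kb, 0.753% within 100 bp, and the median distance to such a peak was 11830 bp. Just outside it, 647 of the 2164 late regions with SOX2 were excluded by 1 SOX2 library alone and 38 by no more than 100 bp of overlap.

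H3K27ac was present at most of these regions in nEnd and at few in SOX2+. The mark overlapped 65.4% of them in nEnd B9 and 62.8% in nEnd B12, against 5.24% in SOX2+ A and 5.22% in SOX2+ B. The groups did not overlap and differed by 58.9 percentage points (64.1% ± 1.87 against 5.23% ± 0.0157, mean ± SD, n = 2 each). An exact permutation test over libraries, two-sided, gave p = 0.33 (adjusted p = 0.33 over 4 comparisons), the smallest that 2 against 2 libraries allow. The 1 DP library lay between, at 18.4% (17.8 to 19.1%), beside 28.6% of all merged GATA6 regions. Intervals in brackets are 95% Clopper-Pearson intervals over regions, which reflect counting error and not the spread between libraries. Called in both libraries of a condition, H3K27ac was at 56.3% of the regions in nEnd, where 45.3% of all merged GATA6 regions had it, and at 3.27% in SOX2+, where 7.2% of all had it.

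The libraries differ in how much of the genome their peaks cover, and these values stand beside the shares. H3K27ac peaks numbered 13514 and 14722 in SOX2+ and covered 0.960% and 1.05% of the genome, the DP library held 76260 peaks over 2.35%, while 21394 peaks covered 5.03% in nEnd B9 and 20072 wider peaks 6.43% in nEnd B12. The share of regions with the mark, divided by the share of the genome under peaks, was 12.99 and 9.77 in nEnd and 5.46 and 4.97 in SOX2+. This ratio also depends on the widths of regions and peaks, since a region counts when 1 bp is touched. With every library held to 13514 peaks, the mean shares were 53.5% in nEnd and 5.10% in SOX2+. Equal numbers do not equalise coverage, since deposited peaks had median widths of 4386 and 5453 bp in nEnd and 1564 and 1574 bp in SOX2+. The part of unequal sequencing depth in the remaining difference was not tested, since read depth is unknown.

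H3K4me1 was also more frequent in nEnd, and it was at more of the regions than H3K27ac in SOX2+. Its peaks covered 4.53% of the genome in SOX2+ A and 4.95% in SOX2+ B, more than those of H3K27ac. Divided by this coverage, the H3K4me1 shares were 4.25 and 4.55, below the 5.46 and 4.97 of H3K27ac. H3K4me1 overlapped 72.4% of the regions in the first nEnd library and 52.7% in the second, against 19.2% in SOX2+ A and 22.5% in SOX2+ B. The groups did not overlap and differed by 41.7 points (62.5% ± 13.9 against 20.9% ± 2.33, SD, n = 2 each; exact permutation p = 0.33, adjusted p = 0.33). The nEnd libraries differed from each other by more than the SOX2+ libraries did, with 42816 and 18627 peaks against 58085 and 78354. With every library held to 18627 peaks, the mean was 53.3% in nEnd and 10.1% in SOX2+, so the SOX2+ share depends on the number of peaks. The DP library marked 44.9% of the regions (44.1 to 45.8%), beside 54.1% of all merged GATA6 regions, from 130749 peaks over 7.25% of the genome. In both libraries of a condition, H3K4me1 was at 50.8% of the regions in nEnd beside 42.3% of all merged GATA6 regions, and at 16.3% (15.7 to 16.9%) in SOX2+ beside 23.8% of all. Taking either SOX2+ library in place of both raised the latter share to 25.5%.

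**Figure D1:**
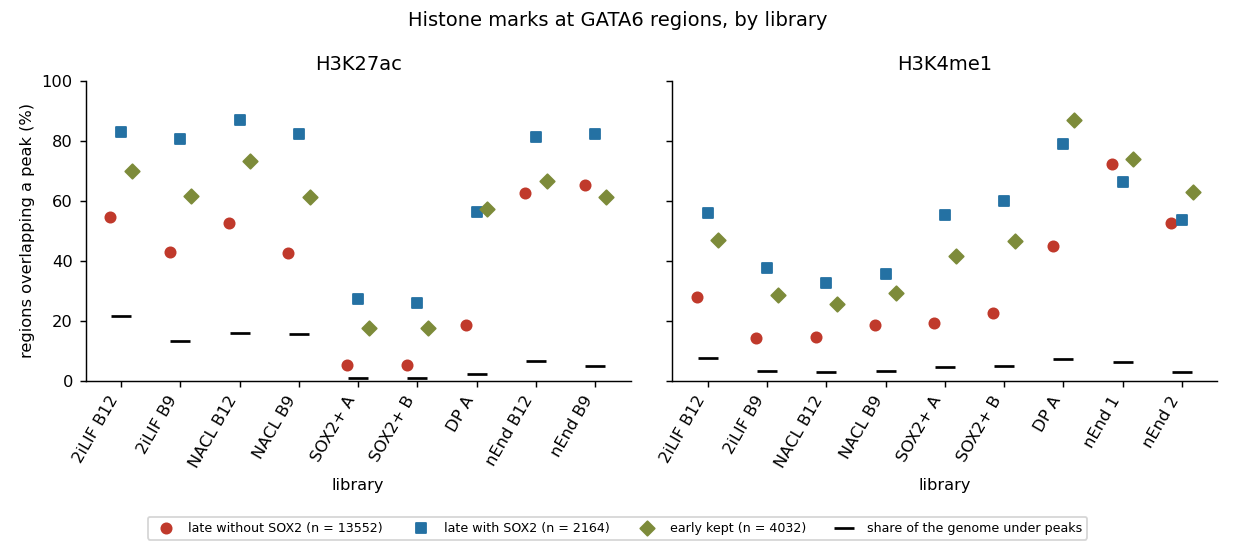
Share of regions (%, y axis) that overlap an H3K27ac (left) or H3K4me1 (right) peak in each library (x axis), for late regions without SOX2, late regions with SOX2 and early kept regions, with the share of the genome under peaks as black dashes. Each point is 1 library, and the late regions without SOX2 lie at 5.24% and 5.22% for H3K27ac in SOX2+ and at 62.8% and 65.4% in nEnd.

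In the naive pluripotent cultures the gap to nEnd was wider for H3K4me1 than for H3K27ac at the deposited peak numbers. H3K4me1 overlapped 14.3% and 27.9% of the regions in 2iLIF B9 and B12 and 18.7% and 14.5% in NACL B9 and B12, all below both nEnd libraries. The difference between nEnd and the 4 naive libraries was 43.7 points (62.5% ± 13.9, n = 2, against 18.8% ± 6.35, n = 4; exact permutation p = 0.13, adjusted p = 0.267). H3K27ac overlapped 43.0% and 54.5% in 2iLIF and 42.6% and 52.7% in NACL, again below both nEnd libraries, by 15.9 points on average (64.1% ± 1.87 against 48.2% ± 6.29, SD; exact permutation p = 0.13, adjusted p = 0.267). Both p-values are the smallest that 2 against 4 libraries allow. The naive H3K27ac libraries held 210904 to 401853 peaks over 13.2 to 21.6% of the genome. With every library held to 20072 peaks, the naive mean was 17.3%, the nEnd mean 63.2% and the difference 46.0 points, and when the weaker peaks of all libraries were left out (the stronger 50% kept) the difference was 9.13 points. For H3K4me1, with every library held to 18627 peaks, the difference was 39.6 points, so the gap was then wider for H3K27ac. Equal numbers do not equalise coverage: deposited H3K27ac peaks had median widths of 4386 and 5453 bp in nEnd and 1008 to 1452 bp in the naive libraries. In both libraries of a medium, H3K27ac was at 35.0% of the regions in 2iLIF and 35.6% in NACL, beside 42.1% and 42.5% of all merged GATA6 regions, and H3K4me1 at 13.7% and 11.1%, beside 18% and 13.2% of all.

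Read together, the marks describe how these regions looked in each of the SOX2+, DP and nEnd cultures. In SOX2+, 73.0% had no peak of either mark in any library (63.7% of all merged GATA6 regions). H3K4me1 in both libraries with H3K27ac not in both was at 14.1%, and both marks in both libraries were at 2.23%. Over all merged GATA6 regions these last shares were 18.3% and 5.50%. In DP, 52.2% had neither mark, 29.4% had H3K4me1 alone and 15.6% had both, beside 42.6%, 28.7% and 25.4% of all merged regions. In nEnd, 37.5% (36.7 to 38.3%) had both marks in both libraries beside 28.3% of all merged GATA6 regions. A mark counted where both nEnd libraries had it, and by this rule 18.8% had H3K27ac alone, 13.4% had H3K4me1 alone and 30.4% had neither. A region with a mark alone could thus hold the other mark in either nEnd library, but not in both. The shares of all merged regions were 16.96% with H3K27ac alone, 14% with H3K4me1 alone and 40.7% with neither, so the single-mark states were near those of GATA6 regions in general. Asking for each mark in either nEnd library gave 60.5% with both marks. No peak of either mark in any nEnd library was seen at 14.4% (23.6% of all). Regions with both marks in nEnd and no mark in any SOX2+ library numbered 3172, or 23.4%, beside 13.9% of all merged GATA6 regions, and 1808 of these also lacked both marks in DP (13.3% of the class, beside 7.17% of all merged regions).

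**Figure D2:**
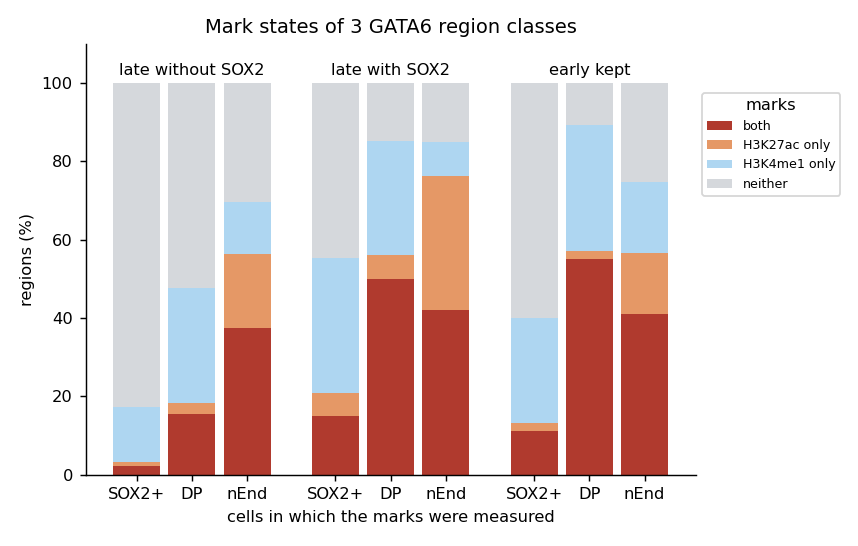
Share of regions (%, y axis) with both marks, H3K27ac alone, H3K4me1 alone or neither in SOX2+, DP and nEnd (x axis), for 3 classes of GATA6 regions. A mark counts where all libraries of the condition have it (2 in SOX2+ and nEnd, 1 in DP). Of the late regions without SOX2, 82.7% had neither in SOX2+ and 30.4% had neither in nEnd.

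The marks in nEnd varied with those in SOX2+ and DP. SOX2+, DP and nEnd cells are separate cultures, so the shares below describe co-occurrence of peaks and not a course over time. They were not computed over all merged GATA6 regions, so whether the co-occurrence is particular to this class was not tested. Of the 2207 regions with H3K4me1 in both SOX2+ libraries, 58.5% (56.4 to 60.5%) had both marks in nEnd, against 31.96% (31.0 to 32.9%) of the 10098 with H3K4me1 in neither. Of the 2499 with H3K27ac in DP, 81.5% had H3K27ac in both nEnd libraries, against 50.6% of the 11053 without it. Of the 302 regions with both marks in SOX2+, 11 had neither mark in both nEnd libraries. Seen from nEnd, 60.9% of the 5081 regions with both marks there had H3K4me1 in DP and 25.4% in both SOX2+ libraries. Among the 1949 with no mark in nEnd, these shares were 17.8% and 3.13%.

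The late regions that overlapped SOX2 had more of both marks in SOX2+ cells than those that did not. In SOX2+, H3K27ac was at 27.2% and 26.1% of late regions with SOX2 (A and B) and H3K4me1 at 55.3% and 60.03%. Measured in the same libraries, the difference, late without SOX2 minus late with SOX2, was -21.4 points for H3K27ac (SD 0.801, n = 2) and -36.8 points for H3K4me1 (SD 1.001, n = 2). Exact sign flips over 2 libraries gave p = 0.5 for each, the smallest possible. In nEnd, the difference in H3K27ac was -16.7 points in B9 and -18.6 in B12, whereas for H3K4me1 the libraries gave opposite signs, at 6.04 and -0.872 points. The SOX2 peaks that define the classes come from SOX2+, DP, 2iLIF and NACL cells, in which the marks were also measured.

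Early kept regions had more of both marks in SOX2+ and DP, and no difference of one sign for H3K27ac in nEnd. H3K27ac in DP was at 57.3% of them and at 18.4% of the late regions without SOX2, and H3K4me1 in DP at 87.1% and 44.9%. In nEnd the difference in H3K27ac, late without SOX2 minus early kept, was 4.09 points in B9 and -3.94 points in B12 (exact sign flips, p = 1). For H3K4me1 it was -1.53 and -10.2 points in the nEnd libraries (exact sign flips, p = 0.5, the smallest possible), and the difference in regions marked in both moved from -8.58 to -0.0841 points when averaged over 4 equal groups by GATA6 rank. The early kept regions have stronger nEnd GATA6 peaks, and within these rank groups H3K27ac was the more frequent at the regions without SOX2, by 10.5 points on average. In the weakest group 48.4% of 3935 late regions without SOX2 and 29.7% of 374 early kept regions had H3K27ac in both nEnd libraries, and in the strongest 72.7% of 2590 and 71.9% of 1965. This comparison within rank groups is a description with no test. Early kept regions were not filtered on SOX2, and the part of SOX2 overlap in these differences was not tested.

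The GATA strings were concentrated at the peak maximum. A GATA string lay within the 200 bp window of 89.0% (88.5 to 89.6%) of the regions, beside 84% of all merged GATA6 regions, 65.7% of late regions with SOX2 and 95.4% of early kept ones. Over 1 kb from a start site the shares were 90.4%, 76.2% at late regions with SOX2 and 97.5% at early kept ones, so the gap to the regions with SOX2 was smaller away from promoters. In the windows 1 kb to the left and right of the same regions the shares were 32.5% and 32.5%, in 291024 tiles of 200 bp of chromosome 19 the share was 35.8%, and in the last 200 bases of 32851 RefSeq promoters (150 before to 50 after the start) it was 19.8%. AGATAA alone was in 58.8%. Within 50 bp of the maximum there were 11.1 GATA strings per kb of sequence, 4.92 times the 2.26 per kb at 800 to 1000 bp. The corresponding ratios were 6.32 at early kept regions and 3.2 at late regions with SOX2.

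**Figure D3:**
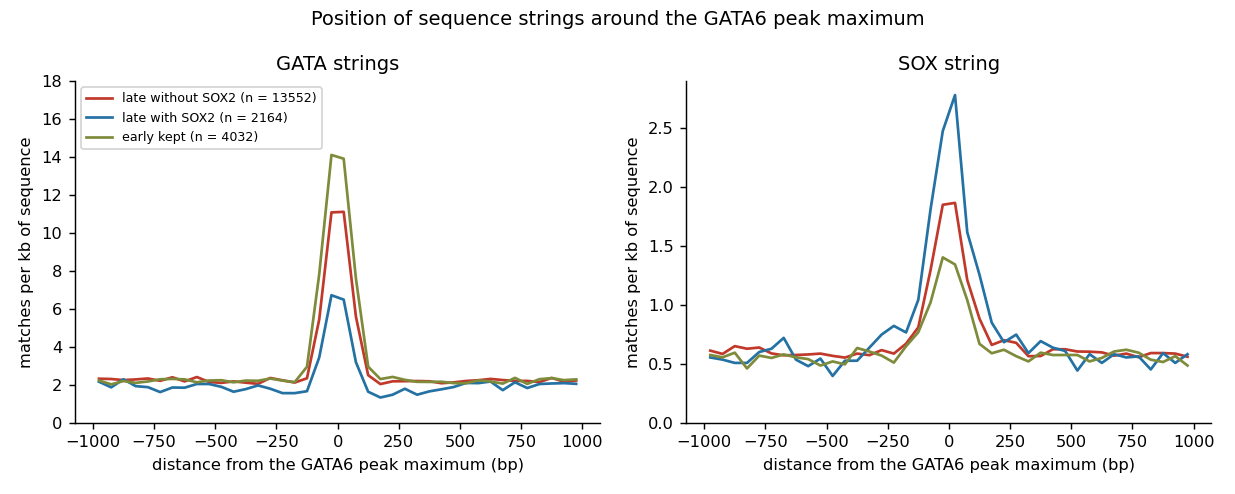
Matches per kb of sequence (y axis) of the 4 GATA strings (left) and of the SOX string CATTGT (right) against distance from the GATA6 peak maximum in bp (x axis, bins of 50 bp), for 3 classes of GATA6 regions. Both strings peak at the maximum in every class, with late regions without SOX2 between the others.

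The SOX string CATTGT, part of the sequence that SOX proteins recognise, was also centred on these regions although they were chosen for having no SOX2 peak. It was in the 200 bp window of 26.5% of them, against 11.1% of the windows on either side and 12.0% of the chromosome 19 tiles. Over all merged GATA6 regions the share was 23.2%, so the string was frequent at GATA6 regions in general. The shares were 33.2% at late regions with SOX2 and 20.7% at early kept ones. Within 50 bp of the maximum its density was 1.86 per kb, 3.09 times that at 800 to 1000 bp. It was in 31.2% of the strongest of the 4 rank groups and 24.2% of the weakest. A match shows only the letters and says nothing of which protein binds them.

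Strings of other factors were rarer. TGACTCA, recognised by AP-1, was in 12.7% of the windows against 6.597% of early kept and 10.7% of late regions with SOX2. TGTTTAC, recognised by forkhead proteins such as FOXA2, was in 9.04% against 6.15% and 6.70%. ACATTCC, recognised by TEAD proteins, was lower here, at 7.07% against 11.6% and 7.76%, and so was ATGCAAAT, recognised by OCT4 and related proteins, at 1.13% against 2.08% and 3.47%. TCAAGGTCA, recognised by ESRRB, was in 0.310% against 0.918% and 0.462%. In the chromosome 19 tiles these shares were 3.21% for TGACTCA, 2.92% for TGTTTAC, 2.69% for ACATTCC, 1.57% for ATGCAAAT and 0.463% for TCAAGGTCA. Over all merged GATA6 regions they were 9.98% for TGACTCA, 7.32% for TGTTTAC, 8.15% for ACATTCC, 2.25% for ATGCAAAT and 0.877% for TCAAGGTCA. The AP-1 and forkhead strings were thus above both, while the TEAD string was above the tiles and below GATA6 regions in general, and the OCT4 and ESRRB strings were below both. In the windows 1 kb to either side the OCT4 string was at 1.02% and 1.04%, close to its 1.13% here. CAAAGTCCA and CCACACCC, parts of the HNF4 and KLF sequences, were in 0.878% and 3.70% of the windows, beside 0.271% and 1.28% of the tiles and 0.644% and 3.68% of all merged GATA6 regions. GTTAAT, part of the HNF1 sequence, was in 8.80% of the windows, beside 7.66% of the tiles and 8.75% of all merged regions. All strings were searched on both strands, and overlapping matches were counted separately.

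Regions with more GATA strings had stronger GATA6 peaks and less H3K27ac. The median GATA6 percentile in nEnd B9 was 40.4 for the 1486 regions with 0 strings, 49.7 with 1, 57.6 with 2 and 64.1 with 3 or more, and in B12 it was 52.2, 59.3, 64.1 and 67.01. H3K27ac in both nEnd libraries went the other way, at 74.8%, 63.6%, 51.0% and 40.4%. Over 1 kb from a start site these shares were 71.5%, 61.2%, 49.1% and 38.5%, so the order was the same away from promoters. H3K4me1 in nEnd varied less and not in one direction, at 51.2%, 53.9%, 50.2% and 45.7%. By GATA6 rank, in contrast, H3K27ac was at 48.4% of the weakest and 72.7% of the strongest rank group. The order by strings was also seen at late regions with SOX2 (84.1% with 0 strings and 55.7% with 3 or more) and at early kept regions (75% and 46.5%), so it is not particular to the regions without SOX2.

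**Figure D4:**
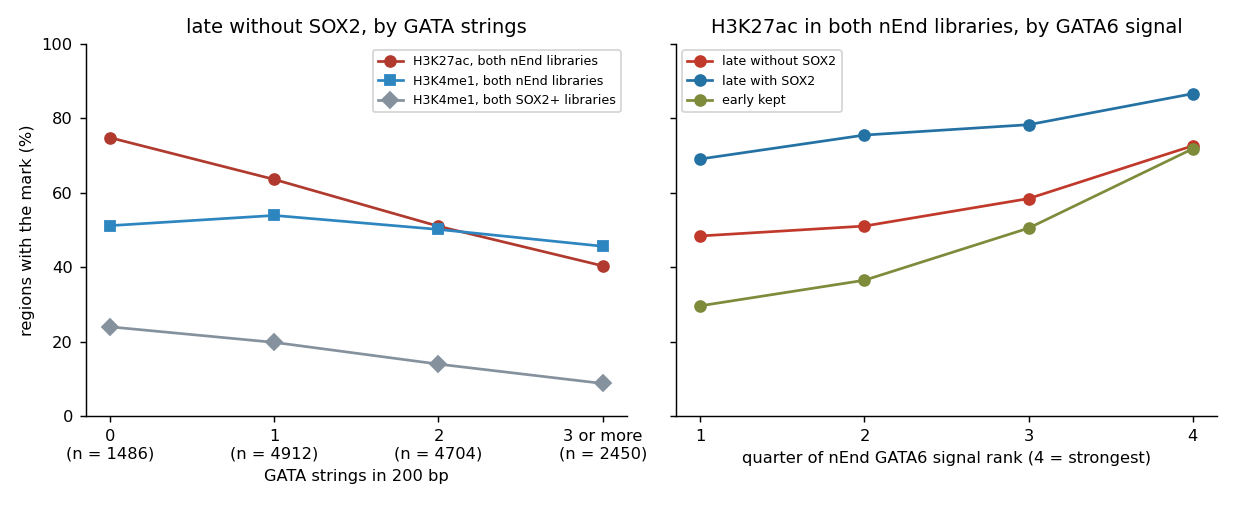
Left, share of late regions without SOX2 (%, y axis) with H3K27ac or H3K4me1 in both nEnd libraries or H3K4me1 in both SOX2+ libraries, by the number of GATA strings in 200 bp (x axis). Right, share with H3K27ac in both nEnd libraries by 4 equal groups of nEnd GATA6 signal rank (x axis, 4 strongest) for 3 region classes, rising from 48.4% to 72.7% at the late regions without SOX2.

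Most of the regions lay away from promoters. The median distance from the centre of a region to the nearest GENCODE M21 start site was 8090 bp (quartiles 2681 and 19791 bp), and 87.0% lay over 1 kb away, beside 85.4% of all merged GATA6 regions. Early kept regions were alike, at 7462 bp and 84.9%, whereas late regions with SOX2 were closer, at 4960 bp and 69.5%. The GATA6 maximum fell in an intron at 54.9% of the regions, between genes at 39.2%, in a non-coding exon stretch at 5.14% and in coding sequence at 0.716%. The 200 bp windows held 11.8% repeat-masked sequence and 45.1% GC on average, against 31.0% and 42.7% in the chromosome 19 tiles.

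The 1762 regions within 1 kb of a start site differed from the others. H3K27ac was in both nEnd libraries at 74.5% of them and at 53.6% of the 11790 distal ones, while H3K4me1 was at 35.7% and 53.1%. In SOX2+, H3K27ac was at 11.5% of the near and 2.04% of the distal regions. A GATA string was in 79.8% of the near windows and 90.4% of the distal ones. The same order was seen at late regions with SOX2 (41.7% and 76.2%) and early kept regions (83.9% and 97.5%). At the 970 regions over 50 kb from a start site, both marks in nEnd were at 24.6%. H3K4me1 in both SOX2+ libraries was at 25.5% of the near and 14.9% of the distal regions, and in DP at 63.6% and 42.1%. H3K27ac was thus more frequent near start sites in nEnd and SOX2+, while H3K4me1 was more frequent near them in SOX2+ and DP and less frequent in nEnd. The marks of all merged GATA6 regions were not split by distance, so whether this pattern is particular to the class was not tested.

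Another late region without SOX2 lay within 10 kb of 42.8% of the regions, and an early kept region within 10 kb of 14.1%. The classes differ in number (13552 and 4032), so these shares are not compared. The nEnd H3K27ac peaks often spanned several, with 433 peaks in B9 and 506 in B12 that held at least 3, covering 18.3% and 22.97% of the regions with the mark. The strongest H3K27ac peak of the genome in both nEnd libraries was the same stretch, chr8:11194174-11455177 in B9, 261 kb wide, and it held 10 of the regions. It spans Col4a1 and Col4a2, which encode the α1 and α2 chains of type IV collagen, the main network of basement membranes. Regions in it share its rank, and the 5 taken as highest by H3K27ac rank were the first of these by position, between 4.68 and 22.6 kb from the nearest start site, of Col4a1. None of these 5 had H3K27ac in SOX2+, 1 had it in DP, and 4 had H3K4me1 in DP. They lie in 1 H3K27ac peak and are not separate observations. H3K27ac in both SOX2+ libraries was at 3.27% of the class and 7.2% of all merged GATA6 regions. In DP, H3K27ac was at 18.4% of the class and 28.6% of all, and H3K4me1 at 44.9% and 54.1%.

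The 10 strongest regions by GATA6 rank exceeded the 99th percentile in both nEnd libraries. All 10 had H3K27ac and H3K4me1 in both nEnd libraries, and 9 of them had no mark in either SOX2+ library. Both marks in nEnd were at 56.3% of the strongest of the 4 rank groups and 28.3% of all merged GATA6 regions. No mark in any SOX2+ library was seen at 73.0% of the class and 63.7% of all merged regions. In the naive cultures H3K27ac was at 9 of the 10 in at least 1 2iLIF or NACL library, with Chst15 the exception, and at the strongest in all 4. The region with SOX2+ marks, 21.4 kb from Slc44a3, had H3K4me1 in both SOX2+ libraries and H3K27ac in SOX2+ A. The strongest lay in an intron of Gm16083 on chromosome 1 (chr1:130544840-130546644), and the second in an intron of Chst15 (chr7:132250133-132251481), which encodes a chondroitin sulfotransferase. Others lay 8.75 kb from Prkaa2, a catalytic subunit of AMP-activated kinase, in Fhl2, a LIM-domain cofactor gene, and in the long non-coding RNA gene 9030622O22Rik.

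The nearest genes numbered 8150. Of these, 5329 had 1 region and 332 had at least 5, which together took 15.5% of all the regions. Of the 8150 genes, 73.6% had neither an early kept region nor a late region with SOX2, and 18.8% had an early kept region as well. Regions with a peak in 1 nEnd library or in DP alone were not counted here. Of the 3249 genes nearest to an early kept region, 47.1% also had a late region without SOX2. The median length of protein-coding genes rose from 29.5 kb with 1 region to 132 kb with 5 or more.

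Genes with more of these regions more often had H3K27ac at their promoter in nEnd. Of 21938 protein-coding genes, 39.4% had an H3K27ac peak within 1 kb of a start site in both nEnd libraries and 15.95% in both SOX2+ libraries, and 24.7% had it in nEnd and not in SOX2+. With 1 region the share that had it in nEnd and not in SOX2+ was 36.5% of 2795 genes, with 2 it was 47.4% of 929, with 3 or 4 it was 55.7% of 528, and with 5 or more it was 62.5% of 256. The SOX2+ shares were 23.4%, 24.97%, 22.5% and 22.3% over the same steps. In DP they were 56.0%, 62.9%, 67.2% and 66.4%, beside 41.4% of all protein-coding genes. Genes with an early kept region and no late region without SOX2 had promoter H3K27ac in nEnd at 61.3%, and genes with the reverse at 62.4%, so a high share was not particular to the late regions. The opposite pattern, in SOX2+ and not in nEnd, was rare throughout, at 1.29% of all protein-coding genes and 1 of the 256 with 5 or more. The part of gene length and of the unequal peak numbers in this order was not tested.

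**Figure D5:**
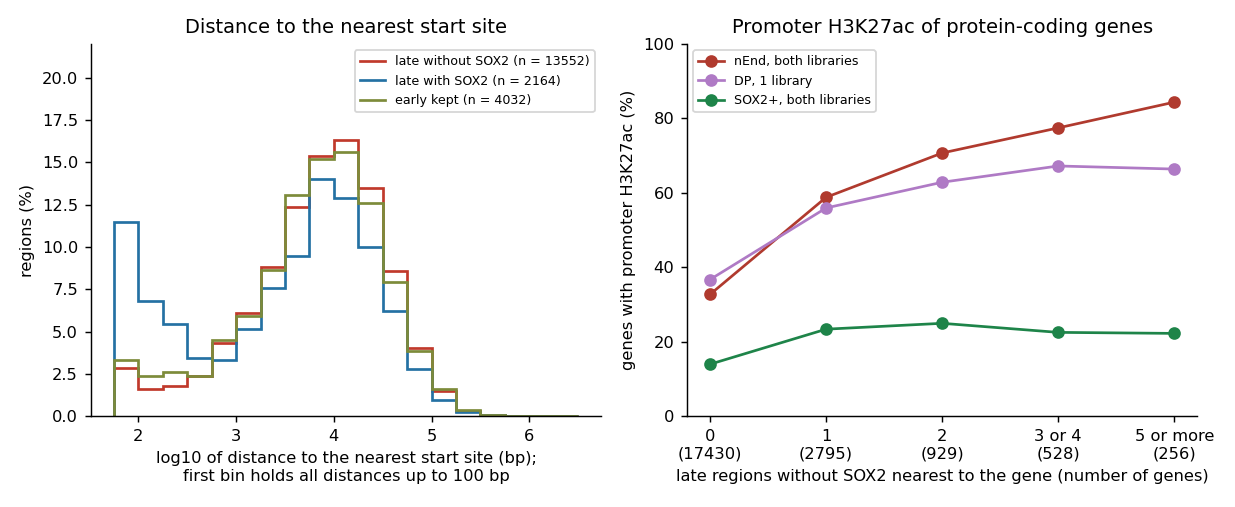
Left, share of regions (%, y axis) by log10 of the distance in bp to the nearest start site (x axis) for 3 region classes, with late regions with SOX2 the closest. Right, share of protein-coding genes (%, y axis) with promoter H3K27ac in nEnd, DP and SOX2+ by the number of late regions without SOX2 nearest to the gene (x axis, number of genes below), rising from 32.7% to 84.4% in nEnd.

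The genes with most of these regions were led by a non-coding and a coding gene. The long non-coding RNA gene 9030622O22Rik (chr2:147944740-148040203, minus strand) had 17, of which 15 had both marks in nEnd. H3K27ac in both SOX2+ libraries was at 0 of the 17, as at every gene named by number, beside 3.27% of the class and 7.2% of all merged GATA6 regions. An nEnd H3K27ac peak of B12, 74.5 kb wide, held 14 of the 17. The protein-coding gene 1700025G04Rik had 14, of which 11 had both marks in nEnd. Neither gene had an early kept region. Creb3l2, a bZIP factor of secretory cells, had 13 and 3 early kept regions, and its promoter had H3K27ac in nEnd and not in SOX2+.

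Of the other 7 genes named by number, Ptpn14, a phosphatase of the Hippo pathway, had 12 regions of which 10 had both marks in nEnd and 10 had H3K4me1 in DP. An nEnd H3K27ac peak of B9, 135 kb wide, held 12 regions at Ptpn14 and its neighbour Gm30280. Zfpm1, which encodes the GATA cofactor FOG1, had 12 and no early kept region, with both marks in nEnd at 8. Palld, an actin cytoskeleton gene, had 12 with both marks at 9, and Myof, a membrane repair gene, had 12 with both marks at 8. Plekha6 had 11, all with both marks in nEnd. Gm13936 had 12 with both marks at 5. Bmper, which encodes a BMP-binding secreted protein, stood apart, with 12 regions of which 2 had both marks in nEnd and 0 had H3K4me1 in SOX2+ or DP, and its promoter had no H3K27ac in nEnd or SOX2+.

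Among 25 PrE transcription factor genes, 14 were nearest to at least 1 region, with 43 regions in all (0.317% of the class, beside 0.258% of all merged GATA6 regions, 0.416% of late regions with SOX2 and 0.298% of early kept ones). Over all 21938 protein-coding genes, 4508 were nearest to at least 1 region, which is the background for the gene counts of this and the following lists. Both marks in nEnd were at 28 of the 43, or 65.1%, beside 37.5% of the whole class. Creb3l2 alone had 13 of the 43 and 11 of the 28. Gata4, a relative of GATA6 in the same lineage, had 6 regions, 4 of them with both marks in nEnd, 0 with H3K4me1 in SOX2+ and 2 with H3K4me1 in DP. Sox17, a SOX factor of endoderm, had 3, all with H3K4me1 in DP and 2 with both marks in nEnd. Foxq1 had 3 with both marks at 1. Gata6 itself had 3, and 0 of them had both marks in both nEnd libraries, although 3 had H3K4me1 in DP. The promoters of these 25 genes had H3K27ac at 13 in nEnd and 2 in SOX2+, while among 32 core and naive pluripotency genes it was 10 in nEnd and 20 in SOX2+. Over all protein-coding genes the shares were 39.4% in nEnd and 15.95% in SOX2+, so the PrE factors followed the general order of the cells and the pluripotency promoters the reverse order.

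Basement membrane genes had 53 regions at 18 of 28 genes, and 35 (66.0%) had both marks in nEnd, beside 37.5% of the class and 28.3% of all merged GATA6 regions. They were 0.391% of the class, beside 0.348% of all merged GATA6 regions, 0.601% of late regions with SOX2 and 0.521% of early kept ones. Lama1, the α1 chain of laminin-111, had 9 regions and no early kept one, with both marks at 6 and 0 with H3K4me1 in SOX2+. Its strongest region reached percentiles 98.9 and 99.4 in B9 and B12. Col4a1 and Col4a2 had 5 each, with both marks at 5 and 4. Nid2, which encodes nidogen-2, had 5 with both marks at 4. Serpinh1, the collagen chaperone HSP47, and P4hb, a subunit of prolyl 4-hydroxylase, had 4 each with both marks at 2.

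Genes of endocytosis and nutrient transport, the work of visceral endoderm, had 49 regions at 17 of 31 genes, of which 24 (49.0%) had both marks in nEnd (37.5% of the class and 28.3% of all merged regions). They were 0.362% of the class, beside 0.331% of all merged regions and 0.570% of early kept ones. Cubn, the receptor cubilin, had 9 with both marks at 5, and Lrp2, which encodes megalin, had 7 with both marks at 3. Dab2, an endocytic adaptor, had 4 beside 4 early kept regions, with both marks at 1. Lrpap1, a chaperone of megalin, had 4, all with H3K4me1 in DP and 3 with both marks in nEnd. The glucose transporter gene Slc2a3 had 5 and the zinc transporter gene Slc39a8 had 5, with both marks at 3 and 2.

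Signalling genes of PrE had 61 regions at 24 of 46 annotated genes, of which 30 (49.2%) had both marks in nEnd, again beside 37.5% and 28.3%. They were 0.450% of the class, near the 0.428% of all merged regions, and 0.645% of early kept regions lay at these genes. Lifr, the LIF receptor, had 6, all with both marks in nEnd. Smad7, an inhibitor of TGFβ signalling, had 6 with both marks at 4, and 4 had H3K4me1 in SOX2+. Kit and Fgfr2, receptor tyrosine kinases (Fgfr2 is also in the trophoblast list), had 5 each with both marks at 3 and 1. Bmp6, a BMP ligand, had 4 with both marks at 3, and Dusp4, an ERK phosphatase, had 4 with both marks at 0.

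The other lists were smaller. Core and naive pluripotency genes had 14 regions at 10 of 32 genes, 0.103% of the class beside 0.205% of all merged GATA6 regions, 0.3697% of late regions with SOX2 and 0.397% of early kept ones. Counted by genes, 10 of 32 was no lower a share than the 4508 of 21938 protein-coding genes nearest to a region. Klf4, a Krüppel-like factor, had 3 with both marks in nEnd at 2, and Sall4 and Mybl2 had 2 each, all with both marks. Tcl1, Dppa4 and Morc1 had 1 each with both marks at 0. Trophoblast genes had 30 regions at 8 of 20 genes (0.221% of the class, beside 0.168% of all merged regions), with both marks at 11. Plac1, a placental gene, had 7 of them and 0 with both marks in nEnd, although its strongest region was at percentiles 95.1 and 96.6 and had H3K4me1 in both nEnd libraries. Tead4, Krt19 and Elf5 had 4 each, with both marks at 3, 1 and 2, and Gata3, also in the blood and heart list, had 2 with 0. Blood and heart genes known to use GATA factors had 26 regions at 7 of 27 annotated genes (0.192%, beside 0.125% of all), 14 of them with both marks, and 20 of the 26 lay at Zfpm1 and Runx1. Gut and liver genes of later endoderm had 6 regions at 4 of 19 annotated genes (0.0443%, beside 0.0376% of all), including 2 each at Isx and Alb, the latter encoding albumin.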

How the data were processed

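The authors called peaks in each library against an IgG control with SEACR, after trimming, alignment to mm10 (GRCm38), and deduplication. The submitters' processing notes name cutadapt 1.18, Bowtie2 2.3.4.1, SAMtools 1.9, Picard 2.9.1, bedtools 2.27.1, deepTools 3.2.0 and SEACR. The deposited lists give each peak's total and maximum signal on the library's own scale, so signal served for ranks inside each library. File names give the relaxed SEACR mode for histone lists and the stringent mode for GATA6 and SOX2 lists, and the methods state the reverse. Read depth is unknown, and the number of peaks per library, 1378 to 401853, limits what a library can show.

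Of 35 peak lists, 33 were used. IgG libraries were not analysed here. An H3K4me1 and an H3K27ac library of KOSR culture have titles and source names that name different sorted populations and entered no comparison. For SOX2 in NACL, clone B12, the source name gives IgG, and the title was followed. The title of DP GATA6 library A carries the suffix sub02, which no source used here explains. No 2 lists were identical. Regions, gene lists and strings were chosen with earlier results of these data known. A mark was present where a peak shared at least 1 bp with the region. Shares were compared over libraries by exact permutation or exact sign flips (SciPy 1.17.1), with Benjamini-Hochberg adjustment over the 4 comparisons of marks. Intervals are Clopper-Pearson (95%). Genes and start sites came from GENCODE M21, promoters from RefSeq (GRCm38) and sequence from GRCm38.p6. Of the listed symbols, 3 were not in the annotation. Named were the 10 strongest regions by the lower of the 2 nEnd GATA6 percentiles, the 5 strongest by H3K27ac, the 10 genes nearest to most regions, and up to 6 genes per list with most regions. Class assignment, overlap and the permutation test were tested on simulated data. Alternatives covered overlap, peak strength and number, window, distance, start sites, clone and each library left out. One gene of the lists is not reported here by name.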

Additional observations from a re-analysis of the deposited data

Results flagged for a closer look

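The H3K4me1 and H3K27ac libraries of KOSR culture whose labels name different sorted populations lay outside every comparison. The H3K4me1 library had a peak at 32.02% of the late GATA6 regions without SOX2, and the H3K27ac library at 7.81%, from 94492 and 19185 peaks. The single DP and the 2 SOX2+ libraries in the comparisons gave 44.9%, 19.2% and 22.5% for H3K4me1 and 18.4%, 5.24% and 5.22% for H3K27ac. Both values lay between those of SOX2+ and DP. At late regions with SOX2 the 2 libraries gave 64.3% and 29.2%, and at early kept regions 66.7% and 27.5%. Among the peak lists used, no labelled condition had 4 or more libraries, so none was compared with its group for distance from the others.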

How the results depend on the processing

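The number of late regions without SOX2 was 13552, and 6984 with the stronger 50% of peaks, 3091 with nEnd held to the peak number of the largest DP library, and 13552 to 23401 with each GATA6 or SOX2 library left out (highest without nEnd B9). The 4 differences in mark share between nEnd and the other cells kept their direction under every alternative run. With clone as a replicate block, H3K27ac in nEnd minus 2iLIF and NACL was 15.9 points (exact permutation p = 0.222, the smallest that 9 arrangements allow), so the block changed no call. No block was possible for SOX2+, all of clone B12, or for H3K4me1 in nEnd, all of clone B9. Both marks in nEnd were at 60.5% with either library, 36.1% without SOX2 or DP GATA6 within 1 kb and 38.8% over 1 kb from a start site. H3K4me1 in SOX2+ was at 25.5%, 13.9% and 14.9% under the same 3 settings. The share over 1 kb from a start site was 90.2% with protein-coding start sites and 84.8% by the nearest edge. GATA strings were in 93.9% of windows of 500 bp and 75.9% of 100 bp, and AGATAA alone in 58.8%. Within 4 equal groups by GATA6 rank, H3K27ac in both nEnd libraries at late regions without SOX2 minus early kept ones was 10.5 points in place of -0.335, and H3K4me1 minus late regions with SOX2 was -0.750 in place of 0.340, and H3K4me1 minus early kept regions was -0.0841 in place of -8.58. The strength of nEnd binding differs between the classes, and the cause was not tested. Group sizes of 1 and 2 libraries set the smallest p-values, and without read depth an absent peak cannot be told from one missed.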
